A study of Mus musculus with 50 samples.

Results

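The genes described here are the Rab and Arf GTPases of membrane traffic, the vesicle coats and adaptors they recruit and the sorting nexins, measured in the paraventricular nucleus (PVN) of the hypothalamus of 2 inbred mouse strains with and without a forced swim. Members were taken by the names of the spotted cDNA clones: every clone named as a Rab or other RAB-type member of the RAS oncogene family, as an ADP-ribosylation factor (Arf) or Arf-like (Arl) protein or a partner of one, as a coatomer or adaptor complex subunit, or as a sorting nexin. The rule gave 138 of the 22824 clones that are not control spots, with 85 gene names. By role these were 51 clones of 30 Rab GTPases, 3 clones of the Rab6 interacting protein Dennd5a, 1 clone of Ran, 21 clones of 10 Arf and Arl GTPases, 9 clones of 7 regulators or binders of Arf and Arl proteins, 15 clones of 9 coatomer names, 25 clones of 18 adaptor subunits and 13 clones of 9 sorting nexins. Ran came in through its name only, since it works in transport through the nuclear pore and not on membranes.

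A small GTPase is active while it holds GTP and is switched off when the GTP is split, so that it can mark a membrane for a limited time. Rab proteins mark single compartments and call in tethers and motors, Arf proteins recruit coats, the coatomer (COPI) coat buds vesicles in the Golgi, adaptor complexes pick cargo for clathrin and related coats, and sorting nexins bend and sort endosomal membrane. In neurons of the PVN, which release corticotropin-releasing hormone, vasopressin and oxytocin, this machinery carries peptides into secretory granules and brings receptors to and from the surface.

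The study had 6 conditions, each as 1 RNA pool of 6 male mice aged 3 to 5 months: DBA/2J mice killed 4 h or 8 h after a swim of 5 min, C57BL/6J mice killed 4 h or 8 h after the same swim, and non-stressed mice of each strain. Micropunches took the PVN with some tissue beside it, and the RNA was amplified before labelling. On each 2-colour array the RNA of one pool was set against that of another, with 10 arrays per comparison, 5 in each dye orientation, and a total of 50 arrays. Arrays within a comparison repeat the hybridisation of the same pair of pools, so their spread and every p-value below compare 2 pools and leave out the spread between animals. The non-stressed pool of a strain is shared by its 4 h comparison, its 8 h comparison and the comparison of the strains.

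On single arrays 5.56% to 70.7% of all clones exceeded the 95th percentile of intensity of empty spots, the level meant below by brighter than the empty spots. The mean log2 ratios of the 2 dye orientations correlated across all clones at r = 0.116 between the strains, -0.11 and 0.01 in DBA/2J mice after 4 h and 8 h, and -0.02 and -0.26 in C57BL/6J mice. Clones are not independent, so these are descriptions. Of the clones for the hormones of the PVN (Avp, Oxt and Trh, 1 each), 0 to 2 of 3 were brighter than the empty spots in a comparison, and no clone was named for Crh.

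The first question was which of these genes differed between non-stressed DBA/2J and non-stressed C57BL/6J mice. Of the 138 clones, 8 (5.80%) passed the call, against 827 of all clones (3.62%). A call here is a log2 ratio at least 0.50 from 0, the fold used in the study's methods, together with an adjusted p below 0.05 in limma (Benjamini-Hochberg over all clones). Of the 8, 6 were higher in DBA/2J and 2 were lower, against 1.61% and 2.02% of all clones. They carried 5 gene names: Rab6a with 2 clones, a transcript antisense to the coatomer subunit Copg2 with 3, and Arf4, Rab23 and Copz1 with 1 each. By an unadjusted p, 30 members (21.7%) passed 0.05, against 15.4% of all clones, and 42 members (30.4%) were brighter than the empty spots, against 16.1% of all clones. In a fit of these bright clones alone, 8 of the 42 members passed, beside 641 of the 3672 bright clones. The median log2 ratio was 0.03 over the members and 0.01 over all clones. All signs follow the labelled dyes, by which a positive value means more signal in DBA/2J here and in the stressed pool below. The fold changes the study published run the other way. If they are right, every sign and every higher or lower, above and below, turns together while sizes and calls stay. The paper reports that real-time PCR on unpooled RNA gave its published direction for the genes it checked after the swim. It also reports up-regulation by in situ hybridization in the PVN, without showing those data. None of the genes checked in these ways is a member here. Which direction holds was not tested, so higher and lower mean the direction of the labelled dyes only.

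Among the Rab GTPases the strain difference of greatest size was that of Rab23, which restrains Hedgehog signalling in the mouse. Its clone (spot 9837) had log2 ratios of DBA/2J over C57BL/6J from -1.64 through a median of -0.70 to -0.20. It was thus lower in DBA/2J on 10 of 10 arrays, and the fitted ratio was -0.86 ± 0.14 (SE, n = 10 arrays), 1.82-fold lower in DBA/2J (adjusted p = 0.00273). The size depended on the dye orientation, at -0.54 with DBA/2J in Cy5 and -1.19 with DBA/2J in Cy3, and on the normalization: with loess in each print-tip block it was -0.44, and in the authors' processed values -0.22 (adjusted p = 0.294), neither of which passed the call. The arrays were scanned on 2 days, and the mean was -0.64 on the day with 7 arrays and -1.39 on the day with 3, all of these with DBA/2J in Cy3. Within the first of these days it was -0.54 on the 5 arrays with DBA/2J in Cy5 and -0.90 on the 2 with DBA/2J in Cy3.

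Rab6a, the Rab of the Golgi that acts in retrograde transport, had 4 clones, named RAB6 on the array. Spot 15500 ranged from 0.14 through a median of 0.73 to 1.24 and spot 6292 from 0.11 through 0.52 to 0.84, so both were higher in DBA/2J on every one of the 10 arrays. Fitted ratios were 0.77 ± 0.14 for spot 15500 (1.70-fold, adjusted p = 0.00573) and 0.51 ± 0.13 for spot 6292 (adjusted p = 0.0409). The remaining 2 Rab6a clones did not pass: spot 23301 had 0.22 ± 0.15 and spot 15863, not brighter than the empty spots, -0.35 ± 0.18. Leaving out any 1 of the 10 arrays ended the call of spot 6292 (adjusted p 0.0539 to 0.0931), while spot 15500 kept its call each time. The other 48 Rab clones lay between -0.53 (Rab25) and 0.46 (Rab14 and Rab40c) on the log2 scale and did not pass, and the median of all 51 was -0.04. Rab3a, the Rab of synaptic vesicles, was at -0.16 ± 0.14.

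Arf4, a Golgi Arf, was the 1 Arf clone that passed. Spot 11090 ranged from -0.54 through 0.69 to 1.93 and was higher in DBA/2J on 9 of 10 arrays, with a fitted ratio of 0.80 ± 0.19 (1.74-fold, adjusted p = 0.0320). The ratio was 1.22 with DBA/2J in Cy5 and 0.37 with DBA/2J in Cy3. The clone was not brighter than the empty spots, and 7 of the 10 fits that left out 1 array ended the call (adjusted p up to 0.0879). Without background subtraction the ratio was 1.37 (adjusted p = 0.106) and in the authors' processed values 1.40 (adjusted p = 0.0821), and neither passed. The other Arf4 clones lay on the same side without passing, at 0.53 ± 0.15 for spot 6433 (adjusted p = 0.0659) and 0.28 ± 0.19 for spot 6112. The 3 clones of Arf3, another Golgi Arf, all lay below 0 (-0.51, -0.45 and -0.12), and the 3 clones of Arf1, which recruits the COPI coat, all lay above 0 (0.15, 0.18 and 0.33), again with no call. Arl3, a GTPase of the primary cilium, had 0.51 ± 0.17 (adjusted p = 0.140). The median of the 21 Arf and Arl clones was 0.18, with 14 above 0, beside 11712 of all 22824 clones. That median was -0.05 on the arrays with DBA/2J in Cy5 and 0.30 on those with DBA/2J in Cy3. Among their regulators and binders Arl6ip1, a protein of the endoplasmic reticulum, came closest, with 0.49 ± 0.15 (adjusted p = 0.103).

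The coatomer group held 4 of the 8 calls, and 3 of these were for clones named as antisense to a coat subunit. The array has 4 clones named as antisense 2 of coatomer subunit gamma 2, a name with no match in the RefSeq gene table (GRCm38.p6), where Copg2 neighbours the imprinted gene Mest. In DBA/2J over C57BL/6J, spot 12959 ranged from 0.26 through 0.68 to 1.26 and spot 3663 from 0.18 through 0.67 to 0.82, and both were above 0 on all 10 arrays. Spot 216 ranged from -0.21 through 0.52 to 2.24 and was above 0 on 8 of 10. Fitted ratios were 0.71 ± 0.15 for spot 12959 (1.64-fold, adjusted p = 0.0151), 0.62 ± 0.13 for spot 3663 (1.53-fold, adjusted p = 0.0153) and 0.77 ± 0.16 for spot 216 (1.71-fold, adjusted p = 0.0122). The first of these held in both dye orientations (0.76 with DBA/2J in Cy5 and 0.66 in Cy3), as did spot 3663 (0.57 and 0.66), whereas spot 216 had 0.00 with DBA/2J in Cy5 and 1.54 in Cy3 and did not pass with no dye term (adjusted p = 0.116). On the 2 scan days spot 216 had means of 0.41 and 1.61. The fourth antisense clone, spot 19223, was not brighter than the empty spots and had -0.09 ± 0.19, and the clone of Copg2 itself, equally dim, had 0.12 ± 0.20. Spotted cDNA carries both strands, so antisense and sense RNA that share the cloned sequence cannot be told apart.

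The called clone named for a coat subunit itself was that of Copz1, the zeta subunit. Spot 19894 ranged from -1.26 through -0.81 to 0.25, was lower in DBA/2J on 9 of 10 arrays and had a fitted ratio of -0.68 ± 0.17 (1.60-fold lower, adjusted p = 0.0342). It was not brighter than the empty spots, the call ended with no background subtraction (adjusted p = 0.0645) and with median centring (adjusted p = 0.0617), 7 of the 10 fits without 1 array ended the call (adjusted p up to 0.0893), and the other Copz1 clone had 0.14 ± 0.21. None of the other 10 clones named for coat subunits passed, and the median of all 11 was 0.04.

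Adaptor subunits and sorting nexins gave no call between the strains in limma. By an unadjusted p under 0.05, 2 of the 25 adaptor clones passed, 1 higher and 1 lower in DBA/2J, and 6 of the 13 sorting nexin clones, 2 higher and 4 lower, beside 7.82% of all clones higher and 7.59% lower. The adaptor farthest from 0 was Ap2b1, the beta subunit of the clathrin adaptor AP-2 at the plasma membrane, where spot 5743 had -0.69 ± 0.24 (adjusted p = 0.150) and spot 12003 had 0.15. Both clones of Snx4 and both of Snx5, nexins of endosomal sorting, lay below 0 (-0.52 and -0.42 for Snx4, -0.46 and -0.36 for Snx5). Snx5 spot 14584 had an adjusted p of 0.0901, but its mean was -1.23 with DBA/2J in Cy5 and 0.30 in Cy3. Ran had 0.21 ± 0.14 and the 3 Dennd5a clones lay between -0.24 and 0.00.

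**Figure D1:**
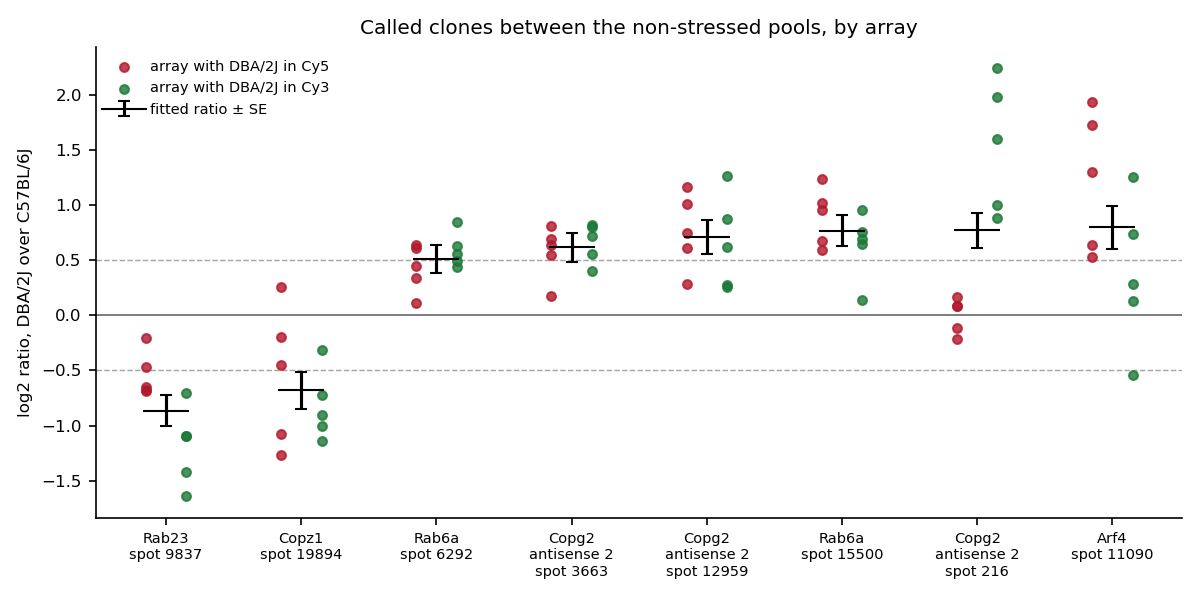
Log2 ratio of non-stressed DBA/2J over non-stressed C57BL/6J for the 8 called clones, 1 point per array coloured by the dye that carried DBA/2J, with the fitted ratio ± SE in black and dashed lines at 0.50 on either side of 0. Rab23, both Rab6a clones and the antisense clones of spots 3663 and 12959 lay on one side of 0 on all 10 arrays, and for spot 216 the 5 arrays with DBA/2J in Cy5 lay near 0.

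In 120 clones of other membrane traffic genes (clathrin, SNARE, exocyst, retromer, COPII and their kin, matched by clone name), 5 (4.17%) passed between the strains. Higher in DBA/2J was Vps35, a retromer subunit (0.67 ± 0.16, adjusted p = 0.0274). Lower were the Golgi adaptor Gga1, which binds Arf (-1.08 ± 0.18, 2.12-fold, adjusted p = 0.00295), the COPII subunit Sec23b (-0.74 ± 0.15, adjusted p = 0.00949), Rab3 effector rabphilin 3A (-0.65 ± 0.14, adjusted p = 0.0174) and the endosomal SNARE syntaxin 7 (-0.68 ± 0.18, adjusted p = 0.0458), whose second clone had -0.09. The called clones of Gga1 and syntaxin 7 were not brighter than the empty spots.

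Markers of other cells moved between the same pools. Higher in DBA/2J were 7 of 24 clones of myelin genes (median 0.24, range -1.05 to 1.10, with 2 clones lower), 4 of 18 of astrocyte genes (median 0.17, range -0.28 to 1.22), 2 of 4 of blood genes (median 0.46, range -0.49 to 1.05) and 1 of 5 of thalamus genes (median 0.35, range -0.13 to 0.67). No clone of 7 for neuronal genes, 6 for microglia, 6 for endothelium or 3 for choroid plexus passed. Their part in the strain differences above was not tested, and in pooled tissue fewer cells of a type and less RNA per cell cannot be told apart.

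The second question was whether the swim moved these genes within a strain. In no comparison of stressed with non-stressed mice did a member pass the call in limma, beside 35 of all clones (0.153%) in DBA/2J after 4 h, 36 (0.158%) in DBA/2J after 8 h, 66 (0.289%) in C57BL/6J after 4 h and 19 (0.0832%) in C57BL/6J after 8 h. By an unadjusted p under 0.05 the members numbered 19 (13.8%, against 10.7% of all clones), 21 (15.2%, against 12.0%), 13 (9.42%, against 12.3%) and 14 (10.1%, against 9.28%) in the same order, and the one-sample test of the methods with the same fold and adjustment called 1, 0, 0 and 1 members, beside 84, 89, 103 and 39 of all clones. The call of 0 was not stable in 2 comparisons: a fit over all 50 arrays called 4 members in DBA/2J after 4 h, beside 355 of all clones, and 1 in C57BL/6J after 8 h, beside 197 of all clones. Medians of the 138 log2 ratios lay between -0.05 and 0.01.

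**Figure D2:**
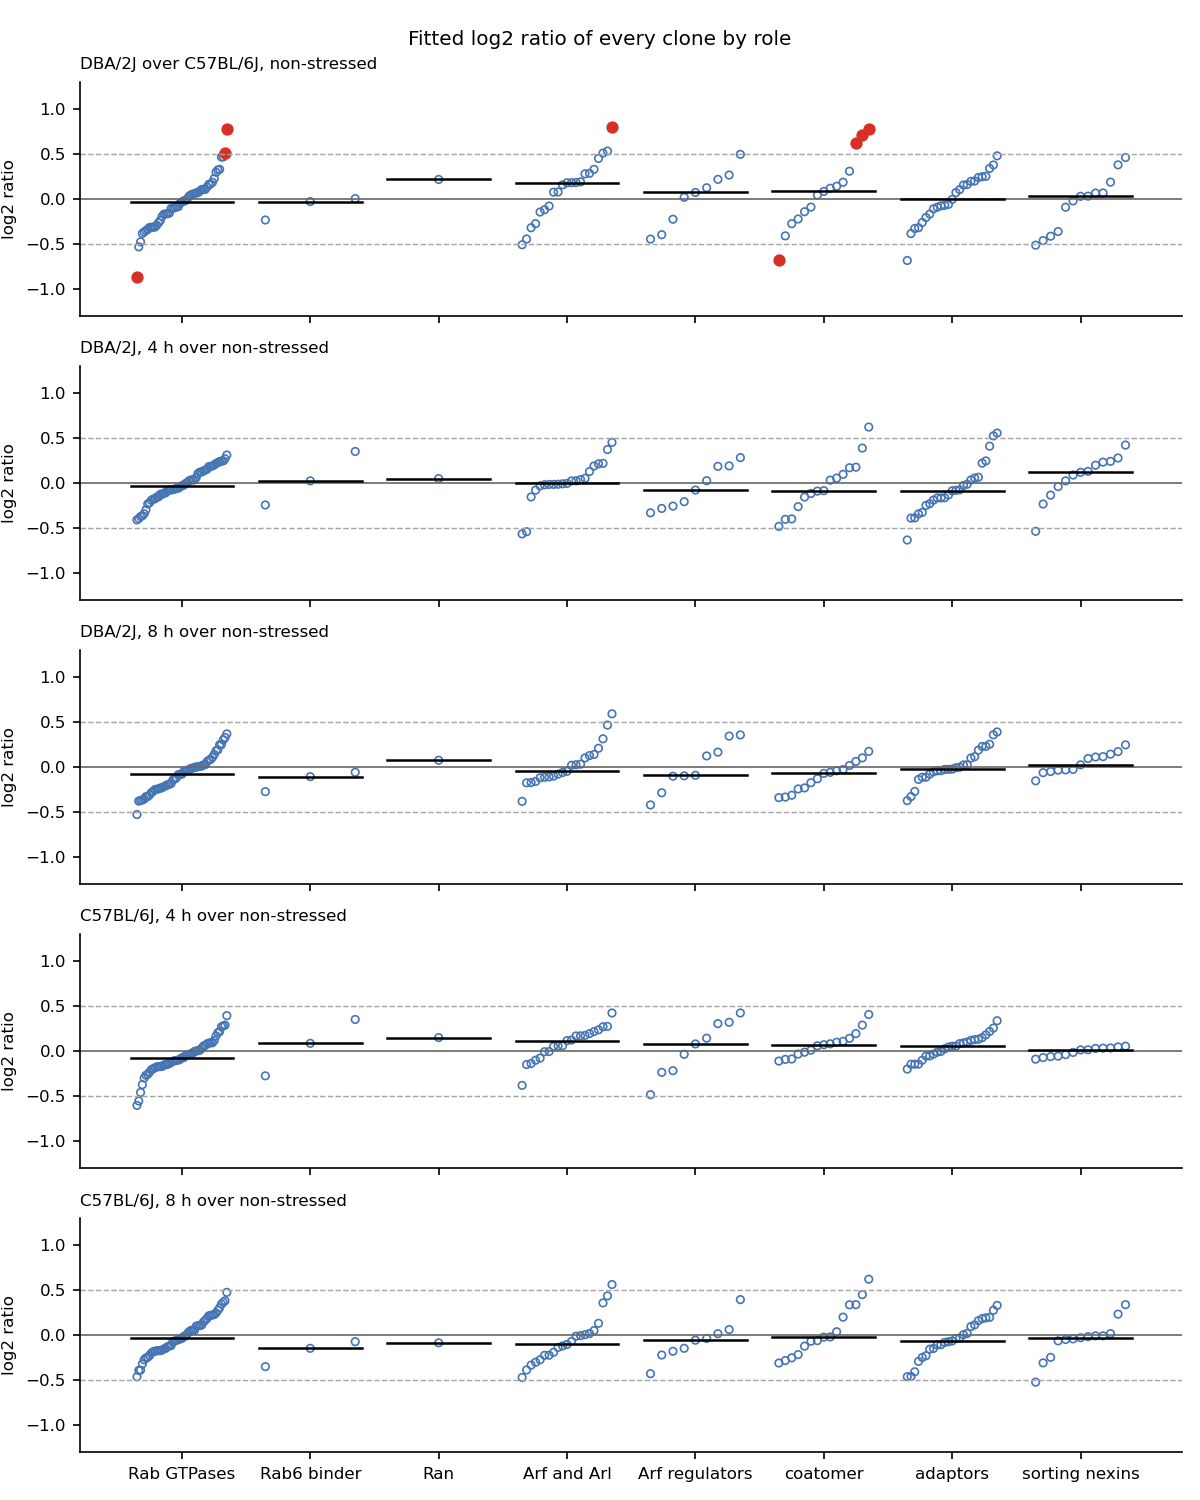
Fitted log2 ratio of each of the 138 clones (circles, sorted within a role) in the 5 comparisons, with the median of each role as a black line, called clones in red and dashed lines at 0.50 on either side of 0. All 8 called clones were in the comparison of the strains, and the medians of the larger groups stayed within 0.18 of 0.

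In DBA/2J mice 4 h after the swim, 2 adaptor clones lay on opposite sides of 0 on every array. Ap2m1, the cargo-binding mu subunit of AP-2 (spot 7253), ranged from -1.17 through -0.74 to -0.18 and was lower in stressed mice on 10 of 10 arrays, with a fitted ratio of -0.63 ± 0.15 (adjusted p = 0.117). Ap1s2, the sigma subunit of the trans-Golgi adaptor AP-1 (spot 21446), ranged from 0.38 through 0.57 to 0.73 and was higher on 10 of 10, at 0.55 ± 0.12 (adjusted p = 0.0852). Neither passed in the fit of this comparison alone, and the other 2 Ap1s2 clones had 0.22 and -0.17. With loess in each print-tip block Ap1s2 spot 21446 had 0.36, and in the authors' processed values 0.30. Arf3 spot 2458 was lower on all 10 arrays (-1.27, median -0.44, -0.17), at -0.57 ± 0.14 (adjusted p = 0.150), while the other Arf3 clones had 0.02 and -0.03. The coat subunit Copb1, not brighter than the empty spots, had 0.62 ± 0.15 (adjusted p = 0.136). Among the other membrane traffic genes 1 clone passed, the synaptic vesicle SNARE Vamp2 (spot 16726), which was lower in stressed mice on 10 of 10 arrays, from -2.47 through -1.33 to -0.56, at -1.32 ± 0.15 (2.50-fold lower, adjusted p = 0.00944). A second Vamp2 clone, spot 3489, had -0.43. The paper lists Vamp2 spot 16726 as up-regulated at this time, and likewise the Trh clone named next, with the reversed sign described above. The clone of the hormone precursor Trh was lower as well (-0.75, adjusted p = 0.0311), and the 18 astrocyte clones, of which 0 passed, had a median of -0.25. Their part in the values of the members was not tested.

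After 8 h in DBA/2J, only 19 of the 138 clones (13.8%, against 6.83% of all clones) were brighter than the empty spots. The clones farthest from 0, with the same sign in both dye orientations, were Arf5 (0.59 ± 0.22, adjusted p = 0.300) and Arf4 spot 6112 (0.46 ± 0.15, adjusted p = 0.240) above and the early endosome Rab5c spot 3261 (-0.53 ± 0.21, adjusted p = 0.334) and Arl6ip4 spot 12669 (-0.42 ± 0.21, adjusted p = 0.447) below. All 4 were dim. Rab23, which was not, had -0.37 ± 0.08 (-0.66, median -0.36, -0.03) and was lower in stressed mice on 10 of 10 arrays (adjusted p = 0.101). Its size depended on the dye, with means by scan day of -0.16 and -0.15 with the stressed pool in Cy5 and -0.53 and -0.61 in Cy3. Of the 51 Rab clones 17 lay above 0, beside 11469 of all 22824 clones. Their median was -0.08, and the median SE of a Rab clone was 0.13.

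In C57BL/6J mice 4 h after the swim the lowest adjusted p of a member, 0.0822, was that of Arf1 spot 11181, which ranged from 0.10 through 0.40 to 0.64 and was higher in stressed mice on 10 of 10 arrays (0.42 ± 0.09). The other Arf1 clones had 0.22 and 0.17. Arfgap1, which switches Arf1 off, had the same ratio of 0.42 ± 0.14 on a dim clone (adjusted p = 0.232). Lowest were Rab3c, a Rab of secretory vesicles (-0.60 ± 0.18, 9 of 10 arrays, adjusted p = 0.192), and Rab11a spot 7489, the Rab of recycling endosomes (-0.55 ± 0.21, 7 of 10 arrays, adjusted p = 0.309), whose second clone had 0.00. The Rab clones had a median of -0.07, with 17 of 51 above 0, beside 11512 of all 22824 clones. The median SE of a Rab clone was 0.14, and clones of a gene are not independent. Of the other membrane traffic genes the SNARE adaptor Napg passed (-0.56 ± 0.08, adjusted p = 0.0210).

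After 8 h in C57BL/6J all 4 antisense clones of Copg2 lay above 0. Spot 12959 ranged from 0.25 through 0.65 to 0.86 and was higher in stressed mice on 10 of 10 arrays, at 0.62 ± 0.11 (adjusted p = 0.0833). The others had 0.45 ± 0.11 (spot 216), 0.34 ± 0.14 (spot 3663) and 0.34 ± 0.25 (spot 19223), with adjusted p of 0.232, 0.471 and 0.722. Spot 12959 passed the call in the authors' processed values (0.65, adjusted p = 0.0424) and with the fit over all 50 arrays. The Copg2 clone had -0.06 ± 0.18. Arf3 gave opposite values on 2 dim clones, 0.56 ± 0.20 (spot 2085) and -0.47 ± 0.17 (spot 19327), and the sorting nexin Snx17 had -0.52 ± 0.17 (adjusted p = 0.351).

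The third question was whether responses to the swim differed between strains or times, which was tested on the 20 arrays of both comparisons together. After 4 h 1 member differed between the strains (0.725%), against 2.34% of all clones. Ap2m1 spot 7253 had -0.63 ± 0.15 in DBA/2J, against 0.13 ± 0.09 in C57BL/6J, where it ranged from -0.23 through 0.12 to 0.61, so that all 10 arrays of DBA/2J but not of C57BL/6J were below 0. The difference was -0.76 ± 0.16 (adjusted p = 0.0120), and after 8 h it was 0.43 ± 0.24 (adjusted p = 0.574). Rab23 had an adjusted p of 0.0291 after 4 h with a difference of 0.497, just under the fold. Of the other membrane traffic genes 9 clones (7.50%) differed after 4 h, among them Vamp2 spot 16726 (-1.65 ± 0.17, adjusted p = 3.43e-05) and 2 clones of the COPII subunit Sec23a (0.79 and 0.74).

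After 8 h 2 members (1.45%, against 0.600% of all clones) differed between the strains, and both were antisense clones of Copg2. Spot 12959 had -0.33 ± 0.10 in DBA/2J, ranging from -0.74 through -0.33 to 0.03, against 0.62 ± 0.11 in C57BL/6J, and the 10 arrays of each strain did not overlap. The difference was -0.96 ± 0.14 (adjusted p = 0.000815). Spot 216 had -0.31 ± 0.08 in DBA/2J, from -0.59 through -0.32 to -0.02, against 0.45 ± 0.11 in C57BL/6J, from -0.36 through 0.41 to 1.32, and these ranges overlapped. The difference was -0.76 ± 0.12 (adjusted p = 0.00214), a call that ended with no dye term (adjusted p = 0.170). With the stressed pool in Cy5 its mean was -0.46 in DBA/2J and -0.08 in C57BL/6J, and with the stressed pool in Cy3 it was -0.17 in DBA/2J and 0.98 in C57BL/6J. Spot 3663 differed the same way without passing (-0.58 ± 0.15, adjusted p = 0.104), and spot 19223 had -0.41 ± 0.40. After 4 h the 4 differences lay between -0.48 and 0.20, with no call. The higher level of these clones in non-stressed DBA/2J, the negative ratios after 8 h in DBA/2J and the positive ones after 8 h in C57BL/6J all rest on the 2 non-stressed pools, so they are not independent of each other.

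Between 8 h and 4 h, 2 members (1.45%, against 1.00% of all clones) differed in DBA/2J and 0 of 138 in C57BL/6J (limma, against 0.495% of all clones, and 15 members with an unadjusted p under 0.05, against 10.7% of all clones). Rab23 had -0.37 ± 0.08 after 8 h, against 0.20 ± 0.12 after 4 h, where it ranged from -0.25 through 0.16 to 0.55, a difference of -0.57 ± 0.12 (adjusted p = 0.0235). Ap1s2 spot 21446 had -0.04 ± 0.08 after 8 h, from -0.38 through -0.03 to 0.26, against 0.55 ± 0.12 after 4 h, a difference of -0.59 ± 0.12 (adjusted p = 0.0193), and the arrays of the 2 times did not overlap. With print-tip loess the differences were -0.37 and -0.34, in the authors' processed values -0.24 and -0.29, and neither clone passed in either. Both calls also ended with no dye term in limma (adjusted p = 0.128 for Rab23 and 0.0734 for Ap1s2). After 4 h the mean of Rab23 was 0.39 with the stressed pool in Cy5, and 0.05 and -0.06 by scan day in Cy3. For Rab23, leaving out replicate 7 of the 8 h arrays gave an adjusted p of 0.0502. In C57BL/6J Rab23 had -0.24 ± 0.11 after 8 h and -0.30 ± 0.08 after 4 h.

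**Figure D3:**
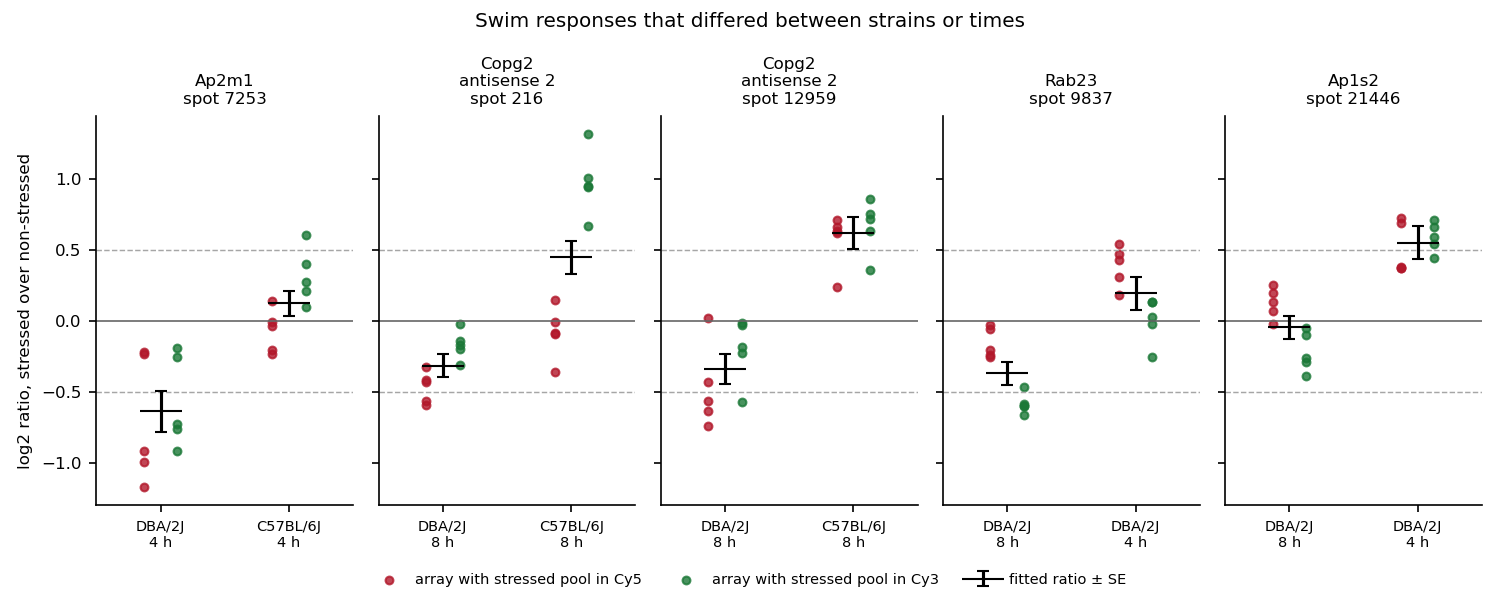
Log2 ratio of stressed over non-stressed mice, 1 point per array coloured by the dye that carried the stressed pool, with the fitted ratio ± SE in black, for the 5 called differences between strains (DBA/2J left, C57BL/6J right) or times (8 h left, 4 h right). The arrays did not overlap for spot 12959 of the Copg2 antisense clones and for Ap1s2 spot 21446, and dashed lines mark 0.50 on either side of 0.

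Several clones of a gene can be set side by side, which the call does not use. Of the 14 gene names with 3 or 4 clones, the clones lay on one side of 0 for 4 names between the strains, for 3 and 3 in DBA/2J after 4 h and 8 h and for 2 and 7 in C57BL/6J. The number expected from clones of random sign was not worked out. These counts alone therefore do not show that the clones of a name agree. The median gap between the highest and the lowest clone of a name was 0.42 on the log2 scale between the strains and 0.28 to 0.37 in the swim comparisons, and the median SE of a single member clone was 0.17 between the strains. Between the strains the gap was widest, of the 14 names, for Rab6a, at 1.12 between spots 15863 and 15500. In DBA/2J mice after 4 h it ranged from 0.07 for the 3 clones of Arf1 to 0.72 for the 3 of Ap1s2.

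**Figure D4:**
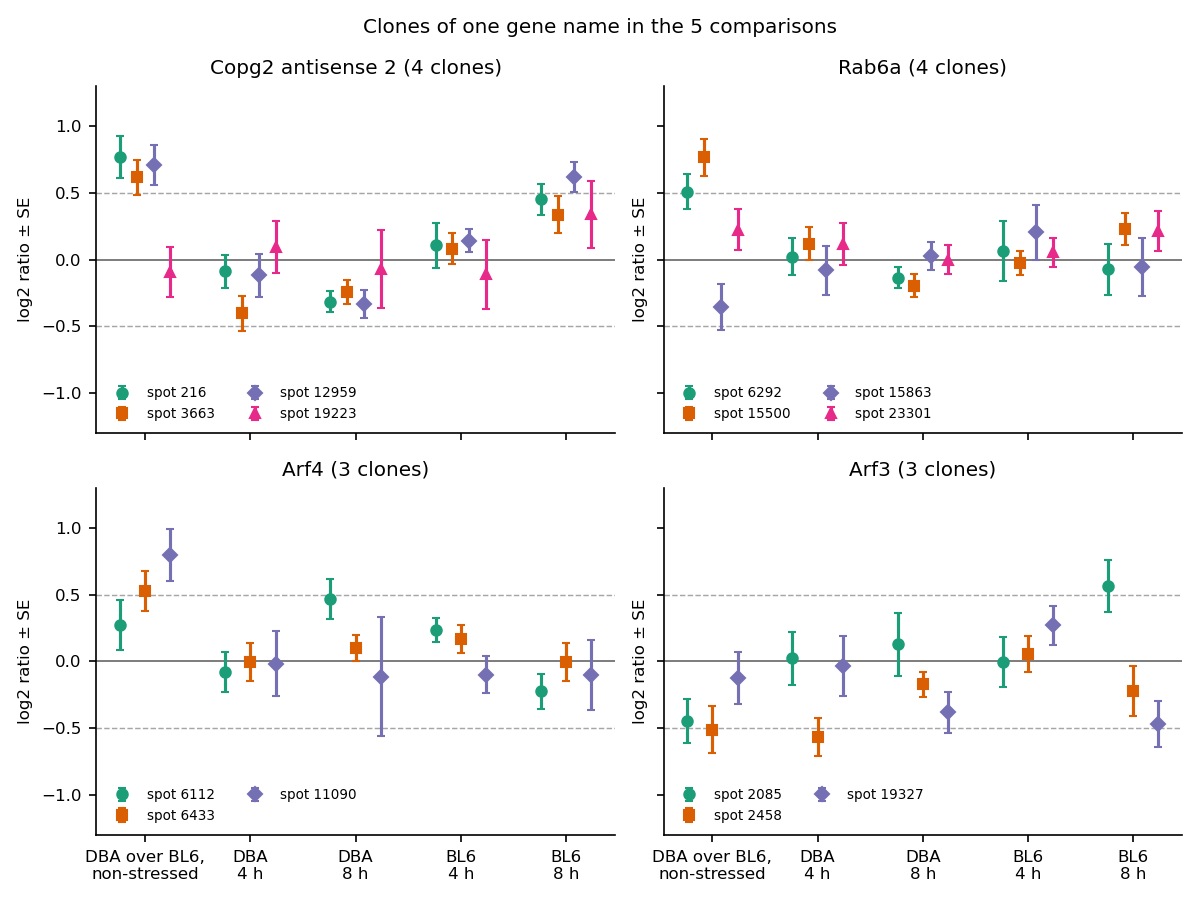
Fitted log2 ratio ± SE (n = 10 arrays) of every clone of 4 gene names in the 5 comparisons, with DBA and BL6 standing for DBA/2J and C57BL/6J and 4 h and 8 h for stressed over non-stressed mice and dashed lines at 0.50 on either side of 0. For the Copg2 antisense name, spots 216, 3663 and 12959 had one sign within each comparison, and spot 19223 lay at -0.09 between the strains.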

How the data were processed

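Per the file headers, the deposited scanner files give for each of 24192 spots the mean intensity and local background of 2 dyes, linear and not normalized. The authors also deposited a table of log2 ratios for 19047 spots after their own filter and normalization, used here as an alternative. It ran the same way as the labelled dyes on all 50 arrays (r = 0.883 to 0.972), and its columns had medians from -0.00658 to 0.00910. How it was centred is not given in the sources used here.

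Intensities were background-corrected with normexp (offset 50) and normalized by loess within each array in limma 3.58.1 (R 4.3.3), with the 1368 control spots (1170 of them empty) at weight 0. Ratios were turned to have DBA/2J, or the stressed pool, on top, and lmFit and eBayes were run per comparison on 10 arrays with a dye term, with p-values adjusted over 22824 clones. Differences were fitted on 20 arrays. The fold of 1.414 is that of the study's methods. A clone counted as brighter than the empty spots if its mean log2 intensity over a comparison exceeded their 95th percentile. The script was tested on simulated data. Alternatives covered background, normalization, dim clones, dye term, scan day (10 days in all), single arrays and the methods' one-sample test with a Z-score threshold of 1.423. The values by scan day were added after seeing the data.

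Symbols come from clone names, and 83 of 85 names matched RefSeq (GRCm38.p6). Named with values were all called clones, in each comparison the 2 highest and 2 lowest with one sign in both orientations, the clone of lowest adjusted p in each role and genes with 3 or more clones; other clones named were chosen after their values were seen. The members and lists were chosen with earlier results of these data known.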

Additional observations from a re-analysis of the deposited data

Results flagged for a closer look

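The swim response differed between the groups of arrays by the test of the difference itself for 5 clones, in limma with adjusted p over all clones. Between DBA/2J and C57BL/6J after 4 h this was Ap2m1 spot 7253 (difference in log2 ratio -0.76, adjusted p = 0.0120). Between the strains after 8 h it was the Copg2 antisense spots 216 (-0.76, adjusted p = 0.00214) and 12959 (-0.96, adjusted p = 0.000815). Between 8 h and 4 h in DBA/2J it was Rab23 spot 9837 (-0.57, adjusted p = 0.0235) and Ap1s2 spot 21446 (-0.59, adjusted p = 0.0193). For the named clones, no array stood apart in any of the 29 sets of 10 log2 ratios tested, each of 1 clone in 1 comparison. The rule was a gap to the nearest array above 0.466 of the range, and chance would mark about 1 in 20 sets. It covers these clones only and not the arrays as a whole.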

How the results depend on the processing

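Between the strains, where 8 members passed, 5 passed with no background subtraction, 5 with no dye term, 5 with the fold and the Z-score, 0 with only the 5 arrays with DBA/2J in Cy5, 3 with only those in Cy3, and 0 after the 5 arrays of each orientation were averaged into 1. Of all clones 656, 664, 637, 35, 140 and 47 were called in the same order. Print-tip loess gave 8, median centring 12, one fit of all 50 arrays 12, scan day as a random block 11, the authors' processed values 7, bright clones alone 8 of 42 members and the methods' test 6 after adjustment and 12 before it. Beside these, 895, 1125, 1236, 1213, 825 (of 18497), 641 (of 3672), 708 and 1537 of all clones were called. Arf4 spot 11090 and Copz1 spot 19894 were not bright, so those 8 are not the same 8. Leaving out 1 array gave 5 to 7, with 5 without replicate 1, 6, 8 or 10. Snx5 spot 14584 reversed to 0.30 with DBA/2J in Cy3 only. The cause was not tested.

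For the swim the main count was 0 in each comparison. In DBA/2J after 4 h the count was 4 with all 50 arrays in one fit, 4 with scan day as a block, 3 over bright clones alone, 4 with the Z-score, and 1 and 5 in the methods' test after and before adjustment, while 355, 290, 235 (of 4982 tested), 173, 84 and 711 of all clones were called in the same order. Before adjustment the methods' test gave 1 in DBA/2J after 8 h and 2 and 3 in C57BL/6J after 4 h and 8 h. Of all clones it called 562, 446 and 550. After 8 h in C57BL/6J the count was 1 with all 50 arrays, with the scan day block, in the processed values, over bright clones, with the stressed pool in Cy3 only, with the Z-score and in the methods' test after adjustment, beside 197, 55, 33, 113, 42, 103 and 39 of all clones. Leaving out 1 array gave 0 in all 4.

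Of the differences, that between the strains after 4 h (1 member) gave 2 by adjusted p alone, 2 with all 50 arrays, 3 in the processed values, 5 over bright clones and 1 to 3 without 1 array. After 8 h (2 members) it gave 1 with no dye term, 4 in the processed values and 2 to 3 without 1 array. Between the times in C57BL/6J (0 members) bright clones alone gave 1. In DBA/2J (2 members) print-tip loess gave 0, no dye term 0, the processed values 0 and leaving out 1 array 1 to 2.

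Arrays of one replicate number did not deviate together (r from -0.016 to 0.021, 10 pairs per difference), so the numbers do not pair arrays. Of 20 arrays, 2, 2, 2 and 0 were closest to their own number (strains after 4 and 8 h, times in C57BL/6J and DBA/2J). Blocking by replicate number called 0, 1, 0 and 0 members in that order, beside 127, 30, 15 and 0 of all clones.

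Of all clones, median centring called 17 higher and 17 lower in C57BL/6J after 8 h, against 18 and 1. In DBA/2J after 8 h it called 32 and 64, against 18 and 18. Of the alternative values of named clones, 672 kept direction and side of the threshold, 73 fell short, 20 newly passed and 1 reversed. Only called clones could fall short, so the 672 do not measure how stable calls were. Called clones fell short in 0 of 9 to 8 of 11 settings. The median SE over the members of a comparison was 0.14 to 0.17. This SE covers repeat hybridisations of the same pair of pools only. It leaves out the spread between animals, which more arrays would not add.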
